A study of Homo sapiens with 9 samples.

Results

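The genes described here are 10 transcripts that ERK signaling induces and that feed back on the pathway: the phosphatase genes DUSP4, DUSP5 and DUSP6, the Sprouty genes SPRY1, SPRY2 and SPRY4, the Spred genes SPRED1 and SPRED2, and the ETS transcription factor genes ETV4 and ETV5. They were taken by symbol from a table of 57736 genes, all 10 were found once, and all 10 passed the filter on low counts that left 14614 genes for testing. RNA-seq was performed in SKMEL-147, an established human melanoma cell line with an activating mutation in NRAS, so the RAS to ERK cascade is driven from its top. The groups compared were 3, of 3 libraries each: cells with a non-targeting guide (sgScr), and cells with either of a pair of guides against PHF8 (sgPHF8-1 and sgPHF8-3). PHF8 is a histone demethylase, and the comparison asks which transcripts change when it is disrupted. All 3 groups carried Cas9 introduced by lentivirus under blasticidin selection, and the guides were delivered by a second lentivirus that also encodes GFP. The study's methods describe efficient transduction and a Western blot check of the knockout, and no isolation of clones. Each library thus reads a culture as a whole, and a smaller share of cells with a transcript cannot be told apart from less of it per cell.

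In the ERK pathway, RAS activates the RAF kinases, RAF activates MEK1 and MEK2, and these phosphorylate ERK. Active ERK raises transcription of its own inhibitors: DUSP proteins remove phosphate from ERK or related kinases, while Sprouty and Spred proteins act higher up, between receptors, RAS and RAF. ETV4 and ETV5 are transcription factors whose genes are induced by the same signal and which act on ERK target genes. Transcripts of this set are widely used as a readout of ERK output in melanoma with RAS or BRAF mutations.

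The guides are shown because the groups are defined by them. Both protospacers were found by exact match in PHF8, which lies on the minus strand of chromosome X (GRCh37, 53963109 to 54075391). Each is given 5′ to 3′ with the adjacent PAM in capitals.
sgPHF8-1: gtcacactcgatcatgaagcGGG
sgPHF8-3: tcctcctgagcctaaacaagAGG
The sgPHF8-1 protospacer lies at chrX:54069090-54069109 on the plus strand, in an exon that 14 of 22 annotated PHF8 transcripts contain, toward the 5′ end of the gene. The sgPHF8-3 protospacer lies at chrX:53966772-53966791 on the minus strand, in an exon of 8 of the 22 transcripts, toward the 3′ end.

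PHF8 transcripts were examined first, as the check of the labels. Normalized counts, which are reads per gene divided by a factor for library depth, were 655, 606 and 634 in sgScr, 564, 571 and 565 in sgPHF8-1, and 399.8, 387 and 434 in sgPHF8-3. All libraries of both PHF8 guides lay below all sgScr libraries. PHF8 fell by 0.63 on the log2 scale with sgPHF8-3 (SE 0.057, adjusted p = 6.4e-09) and by 0.16 with sgPHF8-1 (SE 0.054, adjusted p = 0.027). The smaller decrease with sgPHF8-1 was not called in a DESeq2 test (adjusted p = 0.12), and it was lost without sgPHF8-1 replicate A (adjusted p = 0.073) or C (0.057) and without sgScr replicate A (0.12) or C (0.073). An edited transcript can still be sequenced, so its RNA level does not measure loss of the protein.

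The libraries held 17366120 to 19838142 counted reads, with depth factors from 0.924 to 1.08, so depth differed little. The sgPHF8-1 library B and the sgPHF8-3 library C differed most from the other libraries of their groups (chi-square per degree of freedom from 2.30 to 4.45 in their pairs, 1.38 to 1.95 in all other pairs). The melanoma marker SOX10 was present at 2771 normalized counts in sgScr and fell with both guides (log2 -0.18 and -0.11), whereas MLANA and TYR were at 0 in all 9 libraries. The melanocyte markers PMEL, S100B, DCT, S100A1 and TYRP1 averaged at most 7.49 in any group and did not pass the filter. MITF, the master regulator of melanocytes, was called with neither guide (log2 -0.14 with sgPHF8-1 and 0.14 with sgPHF8-3, adjusted p = 0.22 and 0.25) but differed between them (-0.28, adjusted p = 0.031). AXL and NGFR, which mark dedifferentiated melanoma, averaged 27921 and 11693 normalized counts in sgScr, and NGFR fell with both guides (log2 -0.70 and -0.29), while AXL was called with neither (-0.02 and 0.07, adjusted p = 0.73 and 0.081) and was lower with sgPHF8-1 than with sgPHF8-3 (-0.08, adjusted p = 0.049). Of the markers of other cell types, CD3E and CD3D were at 0 in all libraries, PTPRC, CDH5 and KRT5 averaged at most 1.77 in any group, and KRT14 averaged 40.0 in sgScr, 18.8 in sgPHF8-1 and 21.4 in sgPHF8-3. KRT14 fell with both guides (log2 -1.10 and -0.90, adjusted p = 0.0013 and 0.0092), while KRT5, the other keratinocyte marker, was at or near 0 throughout. The part of these markers in the results was not tested.

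The feedback genes did not move as a block. A gene was called when its adjusted p from the edgeR quasi-likelihood test, corrected over all 14614 genes, was under 0.05. With sgPHF8-1, 3 of the 10 genes rose (DUSP5, SPRED1 and ETV5) and 3 fell (DUSP4, SPRY1 and SPRY2), where 15.2% of all tested genes rose, 15.7% fell and 30.9% were called in either direction. With sgPHF8-3, 3 rose (DUSP5, SPRY4 and ETV5) and 2 fell (DUSP4 and SPRY2), beside 9.48%, 9.78% and 19.3% of all genes. When libraries were scaled by total counts only, the sgPHF8-1 counts became 2 higher and 4 lower, since ETV5 was lost and ETV4 was called lower, and the split over all genes moved from 2221 higher and 2292 lower to 1832 and 2547. DUSP5 and ETV5 rose, and DUSP4 and SPRY2 fell, with both guides, and 13.7% of all genes were called with both guides in one direction. Both guide groups were set against the same 3 sgScr libraries, so their calls are not independent. The median log2 fold change of the 10 genes was -0.0037 with sgPHF8-1 and -0.058 with sgPHF8-3, and the median size of change without its sign was 0.12 and 0.11, beside 0.13 and 0.10 over all genes. The ranges of the 3 libraries did not overlap those of sgScr for 7 of the 10 genes with sgPHF8-1 and 8 with sgPHF8-3. This held for 42.9% and 37.1% of all genes with a mean normalized count of at least 10. Neither this background nor that of the calls was matched to the level of the feedback genes. The counts therefore do not show whether these genes changed more often than genes of like level.

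**Figure D1:**
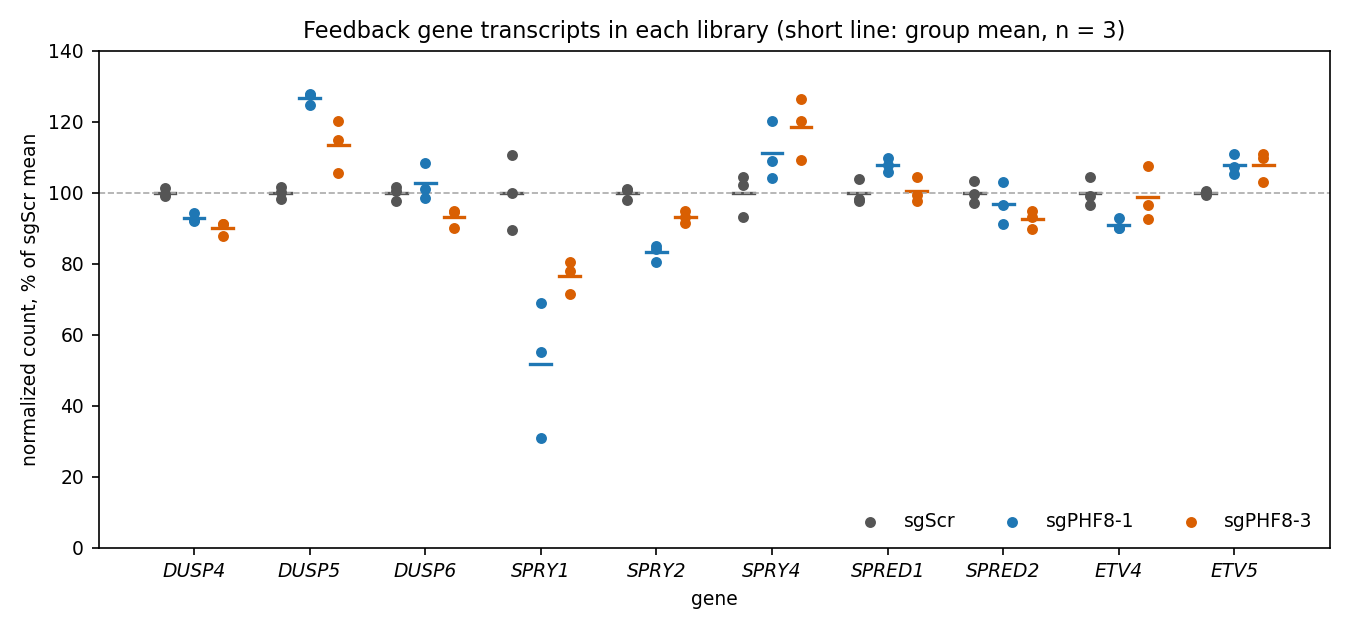
Normalized counts of the 10 feedback genes in each of 9 libraries, as percent of the gene's mean in sgScr (y axis), with a short line at each group's mean of 3 libraries. DUSP5 and ETV5 lie above and DUSP4, SPRY1 and SPRY2 lie below all sgScr libraries in both guide groups. The 3 sgPHF8-1 libraries of SPRY1 are the most spread.

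DUSP6, DUSP4 and DUSP5 encode dual-specificity phosphatases. DUSP5 and DUSP4 are nuclear enzymes and DUSP6 is the cytoplasmic phosphatase of ERK. DUSP5 (ENSG00000138166, chromosome 10, 112257665 to 112271291, GRCh37) had normalized counts of 873, 846 and 863 in sgScr, 1073, 1098 and 1101 in sgPHF8-1, and 988, 1034 and 909 in sgPHF8-3. All 6 libraries with a PHF8 guide lay above all 3 sgScr libraries, and the sgPHF8-1 libraries lay above those of sgPHF8-3. DUSP5 rose by 0.34 on the log2 scale with sgPHF8-1 (SE 0.045, adjusted p = 1.5e-06), a 1.27-fold level, the largest rise among the 10 genes in that comparison. With sgPHF8-3 it rose by 0.18 (SE 0.046, adjusted p = 0.0053), a call that was lost without sgPHF8-3 replicate B (0.14, adjusted p = 0.062).

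DUSP4 (ENSG00000120875, chromosome 8, 29190581 to 29208201) moved the other way. Its normalized counts were 3111, 3125 and 3178 in sgScr, 2886, 2958 and 2899.6 in sgPHF8-1, and 2753, 2864 and 2865 in sgPHF8-3. All libraries of both guides were below all sgScr libraries. DUSP4 fell by 0.11 with sgPHF8-1 (SE 0.031, adjusted p = 0.010) and by 0.15 with sgPHF8-3 (SE 0.031, adjusted p = 0.0010). The sgPHF8-1 call was lost without sgScr replicate C (adjusted p = 0.054).

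DUSP6 (ENSG00000139318, chromosome 12, 89741012 to 89746278), the member most often read as a gauge of ERK output, was not called with either guide. Its normalized counts were 1722, 1655 and 1702 in sgScr, 1835, 1669 and 1710.2 in sgPHF8-1, and 1600.2, 1605 and 1523 in sgPHF8-3. The sgPHF8-1 range overlapped sgScr, while the 3 sgPHF8-3 libraries were all below it. The log2 difference from sgScr was 0.04 with sgPHF8-1 (95% interval -0.039 to 0.12) and -0.10 with sgPHF8-3 (95% interval -0.18 to -0.024, adjusted p = 0.060). With only those 2 groups in the fit, the sgPHF8-3 difference passed the threshold (adjusted p = 0.031). In the annotation used for positions, a gene on the other strand (ENSG00000274021) covers 1105 bases, 28.6% of the DUSP6 exons, and the count table has no row for it. Whether the counting used strand is not given in the sources used here, so reads of that gene cannot be told apart from those of DUSP6.

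**Figure D2:**
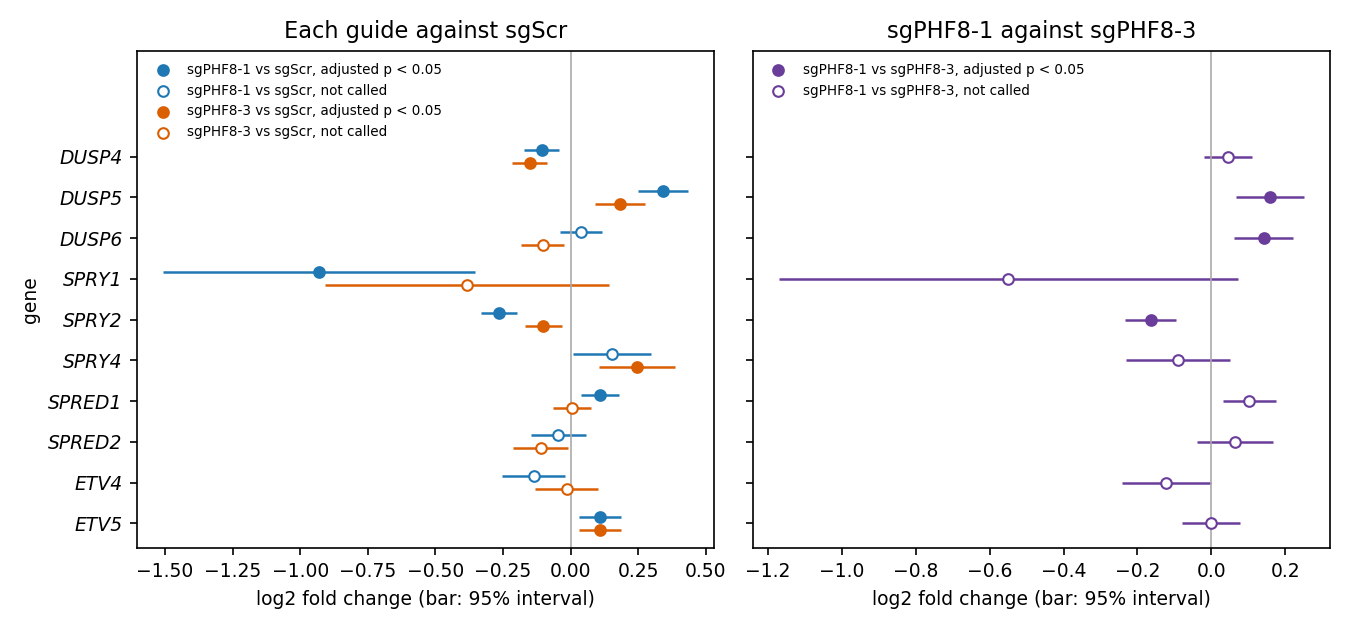
Log2 fold changes (x axis) of the 10 feedback genes (y axis) with 95% intervals from the edgeR fit over 9 libraries, for each PHF8 guide against sgScr (left) and for sgPHF8-1 against sgPHF8-3 (right). Filled points have an adjusted p under 0.05, and the interval of SPRY1, the gene with the fewest reads, is the widest in each comparison.

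Sprouty proteins restrain signaling from receptors to RAS and RAF. SPRY2 (ENSG00000136158, chromosome 13, 80910111 to 80915261) had normalized counts of 2734, 2823 and 2813 in sgScr, 2348, 2249 and 2369 in sgPHF8-1, and 2649.7, 2600.3 and 2556 in sgPHF8-3. The 3 groups did not overlap, with sgPHF8-1 lowest. SPRY2 fell by 0.26 on the log2 scale with sgPHF8-1 (SE 0.033, adjusted p = 6.8e-07), to 0.832 of the sgScr level, and this call held in all 13 alternatives. With sgPHF8-3 it fell by 0.10 (SE 0.033, adjusted p = 0.031), which a DESeq2 test did not call (adjusted p = 0.069). That smaller decrease was also lost without sgPHF8-3 replicate B (adjusted p = 0.093) or C (0.097) and without sgScr replicate B (0.12) or C (0.11), with log2 values between -0.10 and -0.088.

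SPRY1 (ENSG00000164056, chromosome 4, 124317950 to 124324915) was close to the limit of detection. Its normalized counts were 26.9, 24.3 and 21.8 in sgScr, 16.8, 7.57 and 13.4 in sgPHF8-1, and 19.6, 17.4 and 19.0 in sgPHF8-3. The 3 groups did not overlap, but the lowest library, sgPHF8-1 replicate B, held 7 reads and was one of the libraries that stood apart. SPRY1 fell by 0.93 with sgPHF8-1 (SE 0.28, adjusted p = 0.012), the largest decrease in log2 units among the 10 genes and also the one with the largest error. The call was lost in DESeq2 (adjusted p = 0.079), without sgPHF8-1 replicate B (log2 -0.68, adjusted p = 0.086), without both libraries that stood apart (adjusted p = 0.087) and without sgScr replicate A (adjusted p = 0.051). With sgPHF8-3 the log2 difference was -0.38 (95% interval -0.91 to 0.14, adjusted p = 0.32).

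SPRY4 (ENSG00000187678, chromosome 5, 141689992 to 141706020) had normalized counts of 411, 367 and 403 in sgScr, 429, 410.0 and 473 in sgPHF8-1, and 430.2, 497 and 473 in sgPHF8-3. The sgPHF8-3 libraries were all above sgScr, and the sgPHF8-1 libraries overlapped it. SPRY4 rose by 0.24 with sgPHF8-3 (SE 0.069, adjusted p = 0.013), and this was lost without sgPHF8-3 replicate B (adjusted p = 0.094) or sgScr replicate B (0.090). With sgPHF8-1 the log2 difference was 0.15 (95% interval 0.010 to 0.30, adjusted p = 0.099), which ranged from 0.092 without sgPHF8-1 replicate C (adjusted p = 0.39) to 0.20 without sgPHF8-1 replicate B, where it passed (adjusted p = 0.035), as it did without both libraries that stood apart (0.20, adjusted p = 0.027). Within the Sprouty family, SPRY2 was lower and SPRY4 higher with sgPHF8-3 in the same libraries.

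A pair of promoters is shown because one gene fell with both guides (SPRY2) and the other, the most used reporter of the pathway, was called with neither (DUSP6). RefSeq promoter sequence (GRCh38.p14, a different build from the gene positions above) was available for 6 of the 10 genes: DUSP6, SPRY1, SPRY2, SPRY4, SPRED1 and SPRED2. Each line gives the 250 bases before the most upstream annotated start, 5′ to 3′ on the gene's strand. Capitals mark CCGGAA, a form of the ETS motif that is longer and stricter than its GGAA core, searched on both strands (as TTCCGG on the other strand). The core alone was not searched, nor was any other motif.
SPRY2 chr13:80341127-80341376 minus strand: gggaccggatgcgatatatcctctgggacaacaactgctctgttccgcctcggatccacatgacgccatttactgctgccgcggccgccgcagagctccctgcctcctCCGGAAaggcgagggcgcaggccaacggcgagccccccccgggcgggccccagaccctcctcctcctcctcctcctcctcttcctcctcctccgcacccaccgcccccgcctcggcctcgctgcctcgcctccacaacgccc
DUSP6 chr12:89352502-89352751 minus strand: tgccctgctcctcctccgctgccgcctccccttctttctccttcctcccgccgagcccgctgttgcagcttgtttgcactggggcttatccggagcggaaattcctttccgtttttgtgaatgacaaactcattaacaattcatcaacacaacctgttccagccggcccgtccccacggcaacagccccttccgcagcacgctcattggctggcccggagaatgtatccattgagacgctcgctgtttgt
Of the most upstream promoters of the 6 genes, 1 held the motif, that of SPRY2. Counting all 10 annotated starts of these genes, 2 held it, the other being a second start of SPRY1, and 14.5% of 35116 promoters of this length, over all annotated starts, did.

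Spred proteins are membrane inhibitors of RAS signaling, and SPRED1 works by bringing the RAS inactivator neurofibromin to the membrane. SPRED1 (ENSG00000166068, chromosome 15, 38545037 to 38649450) had normalized counts of 2854, 2869 and 3034 in sgScr, 3088, 3208 and 3149.6 in sgPHF8-1, and 2902, 2847 and 3047 in sgPHF8-3. The sgPHF8-1 libraries lay above both other groups, which overlapped. SPRED1 rose by 0.11 with sgPHF8-1 (SE 0.034, adjusted p = 0.017), and was not called without sgScr replicate A (0.09, adjusted p = 0.11) or B (0.10, adjusted p = 0.084). With sgPHF8-3 the log2 difference was 0.01 (95% interval -0.065 to 0.077, adjusted p = 0.93). SPRED2 (ENSG00000198369, chromosome 2, 65537985 to 65659771) had 806, 775 and 756 normalized counts in sgScr, 753, 802 and 711 in sgPHF8-1, and 699.7, 727 and 740.0 in sgPHF8-3. Its sgPHF8-3 libraries were below sgScr without overlap, yet it was called with neither guide (log2 -0.05 and -0.11, adjusted p = 0.53 and 0.12). The sgPHF8-1 value ranged from -0.086 without sgPHF8-1 replicate B to -0.0061 without replicate C.

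ETV4 and ETV5 belong to one subfamily of ETS factors. ETV5 (ENSG00000244405, chromosome 3, 185764103 to 185828107) had normalized counts of 1259, 1251 and 1264 in sgScr, 1325, 1396 and 1351 in sgPHF8-1, and 1394, 1381 and 1296 in sgPHF8-3. All 6 PHF8 guide libraries lay above sgScr, whose 3 libraries differed by only 0.512% (coefficient of variation). ETV5 rose by 0.11 with sgPHF8-1 (SE 0.038, adjusted p = 0.030) and by 0.11 with sgPHF8-3 (SE 0.038, adjusted p = 0.042). Both calls were near the threshold and were lost in DESeq2 (adjusted p = 0.12 and 0.15), when all genes with a read were tested (0.12 and 0.15) and without any 1 of the sgScr libraries (adjusted p from 0.064 to 0.088 with sgPHF8-1 and from 0.087 to 0.12 with sgPHF8-3). The sgPHF8-1 call was also lost when scaling by total counts only (0.061), without both libraries that stood apart (0.065) and without sgPHF8-1 replicate B (0.095) or C (0.058). The sgPHF8-3 call was also lost without sgPHF8-3 replicate A (0.18) or B (0.15) and with the replicate letter as a block. ETV5 shares 164 bases, 2.84% of its exons, with DGKG on the same strand.

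ETV4 (ENSG00000175832, chromosome 17, 41605212 to 41656988) had normalized counts of 584, 614 and 569 in sgScr, 531, 546 and 530.1 in sgPHF8-1, and 633, 568 and 545 in sgPHF8-3. The sgPHF8-1 libraries were all below sgScr, and the sgPHF8-3 libraries spread across it. It was called with neither guide, at log2 -0.14 (95% interval -0.26 to -0.019, adjusted p = 0.072) with sgPHF8-1 and -0.02 (95% interval -0.13 to 0.10, adjusted p = 0.89) with sgPHF8-3. Scaling by total counts alone brought the sgPHF8-1 difference past the threshold (-0.16, adjusted p = 0.040). DHX8 on the other strand covers 68 bases, 1.94%, of its exons.

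When both PHF8 guides were averaged and set against sgScr, 3 feedback genes rose and 3 fell, beside 14.7% and 14.9% of all genes (29.6% in either direction). DUSP5 (0.26, adjusted p = 1.1e-05), SPRY4 (0.20, adjusted p = 0.013) and ETV5 (0.11, adjusted p = 0.013) rose. SPRY1 (-0.66, adjusted p = 0.031), SPRY2 (-0.18, adjusted p = 1.7e-05) and DUSP4 (-0.13, adjusted p = 0.00060) fell. DUSP5, SPRY2 and DUSP4 kept this call in all 15 alternatives, and they were the 3 genes that DESeq2 called. Without sgScr replicate B only these 3 remained, since SPRY1, SPRY4 and ETV5 were lost (adjusted p = 0.086, 0.12 and 0.059), and without sgScr replicate A 4 remained, SPRY1 and ETV5 being lost (adjusted p = 0.13 and 0.052). SPRY1 was also lost without sgPHF8-1 replicate B (adjusted p = 0.077) or sgPHF8-3 replicate B (0.057) and without both libraries that stood apart (-0.54, adjusted p = 0.088), and ETV5 when all genes with a read were tested (0.052). DUSP6, SPRED1, SPRED2 and ETV4 were not called, with log2 differences between -0.08 and 0.06, although SPRED2 passed without both libraries that stood apart (-0.11, adjusted p = 0.049).

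The guides also differed from each other. Between sgPHF8-1 and sgPHF8-3, 10.6% of all genes were called, 4.74% higher and 5.83% lower with sgPHF8-1, and the ranges of 25.8% of genes did not overlap. The split was 692 higher and 852 lower, and became 535 and 1032 when libraries were scaled by total counts only. Among the feedback genes, 2 were higher and 1 lower with sgPHF8-1, and ranges did not overlap for 6. DUSP5 was higher by 0.16 (SE 0.045, adjusted p = 0.022), DUSP6 was higher by 0.14 (SE 0.039, adjusted p = 0.017), and SPRY2 was lower, with a log2 difference of -0.16 (SE 0.034, adjusted p = 0.0019). The SPRY2 difference held in all 13 alternatives. The DUSP6 difference was lost without sgPHF8-1 replicate A (0.10, adjusted p = 0.16) or sgPHF8-3 replicate C (0.12, adjusted p = 0.090). The DUSP5 difference was lost without sgPHF8-3 replicate C (0.11, adjusted p = 0.16) or sgPHF8-1 replicate C (0.15, adjusted p = 0.063), without both libraries that stood apart (0.11, adjusted p = 0.17) and in DESeq2 (adjusted p = 0.074). SPRED1 (0.10, adjusted p = 0.056) passed without sgPHF8-3 replicate C (0.13, adjusted p = 0.028), without both libraries that stood apart (0.12, adjusted p = 0.021) and with the replicate letter as a block (adjusted p = 0.048). PHF8 itself was higher by 0.48 with sgPHF8-1 than with sgPHF8-3 (SE 0.059, adjusted p = 3.9e-06).

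Levels were compared between genes as normalized counts per kilobase of exon. In sgScr the order was SPRY2 (868 ± 15.2 SD, n = 3), DUSP6 (439 ± 8.84), DUSP4 (431 ± 4.84), SPRED1 (377 ± 12.9), DUSP5 (339.5 ± 5.57), ETV5 (218 ± 1.12), ETV4 (168 ± 6.61), SPRED2 (141 ± 4.57), SPRY4 (60.0 ± 3.54) and SPRY1 (6.15 ± 0.645). Only DUSP6 and DUSP4 overlapped among neighbors in this order. With sgPHF8-1, DUSP5 (430.2 ± 6.0) moved ahead of SPRED1 (406 ± 7.74) and DUSP4 (401 ± 5.23), and its range overlapped that of DUSP6 (450.4 ± 22.3). With sgPHF8-3, DUSP4 (389 ± 8.87), DUSP5 (385 ± 24.9) and SPRED1 (378 ± 13.3) overlapped in turn. The order from ETV5 down to SPRY1 was the same in the 3 groups. The exon length is that of all annotated transcripts together, so a gene whose cells use a shorter transcript is placed too low.

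**Figure D3:**
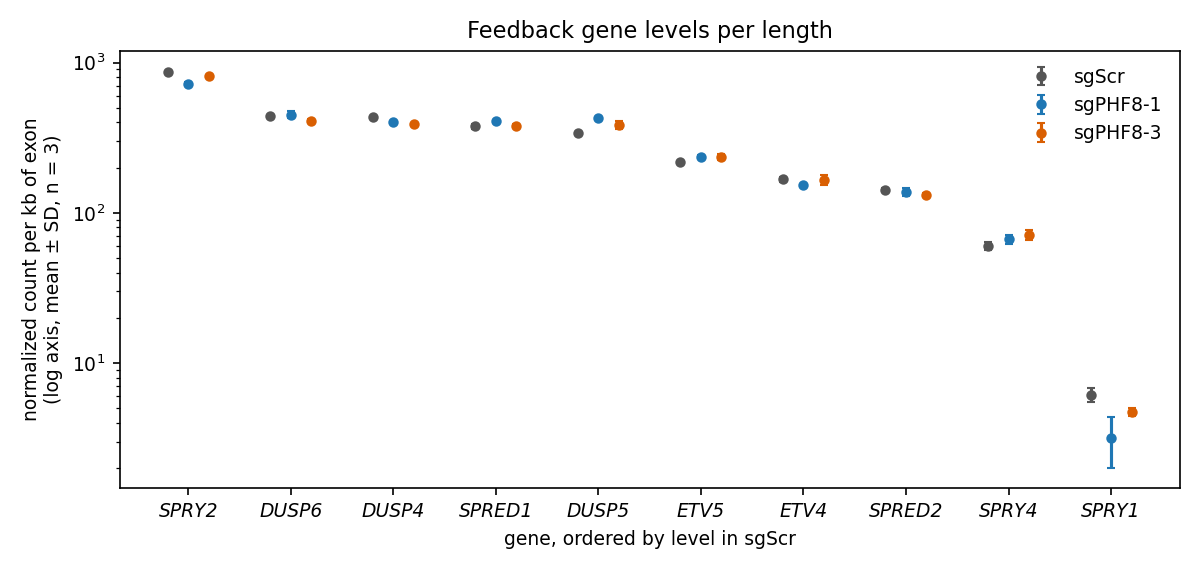
Levels of the 10 feedback genes in normalized counts per kilobase of exon (log y axis), ordered by their level in sgScr, as mean ± SD of 3 libraries per group. SPRY2 is highest in each group, at 868 in sgScr, and SPRY1 lowest, at 6.15.

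The genes whose pattern over the 9 libraries was closest to that of DUSP6 were ZNF513 and SDF2L1, each with a root-mean-square difference of 0.032 in log2 CPM (counts scaled to library size) centred on the gene's mean. INO80B (0.035), OPN3 (0.040) and SCN2A (0.041) followed, among 10518 genes that varied at least as much as DUSP6 (SD 0.077). The feedback genes were compared among themselves without this limit on variation. The pair with the smallest difference was DUSP4 and SPRED2 (0.052), whose SDs were 0.070 and 0.070. The member with the smallest difference from DUSP6 was DUSP4 (0.080). That value is no smaller than the SD of DUSP6 itself (0.077), so it does not show a shared pattern. These are descriptions over libraries that share their groups and depth.

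The other genes of the pathway were read from 3 lists. The first held 28 genes of the cascade from adaptors to the kinases downstream of ERK, all of which were tested. With sgPHF8-1, 6 rose and 11 fell, and with sgPHF8-3, 2 rose and 7 fell, where 30.9% and 19.3% of all genes were called in either direction. The median log2 difference was -0.030 and -0.050, beside medians within 0.001 of 0 over all genes. NRAS rose with both guides (0.14 and 0.14, adjusted p = 0.0021 and 0.0028). Another 7 fell with both guides, and 13.7% of all genes were called with both in one direction. The largest decrease was that of GAB1, an adaptor (-0.44 with sgPHF8-1, adjusted p = 0.00024, and -0.26 with sgPHF8-3, adjusted p = 0.025). SOS1, which loads RAS with GTP, fell by 0.31 and 0.24 (adjusted p = 0.00090 and 0.011). NF1, the RAS inactivator neurofibromin, fell by 0.34 and 0.19 (adjusted p = 1.4e-06 and 0.0034). The ERK-activated kinases RPS6KA1 (-0.28 and -0.15) and RPS6KA3 (-0.20 and -0.18) were lower too (adjusted p at most 0.019), as was MKNK2. The genes that fell included both activators and an inhibitor of RAS. PTPN11, the phosphatase SHP2 and the gene with the highest counts in the list, was not called with either guide (log2 0.05 and 0.03).

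The second list held 10 paralogs, of which 7 were tested; DUSP2, DUSP9 and SPRY3 did not pass the filter. With sgPHF8-1, 1 rose and 2 fell, and with sgPHF8-3, none rose and 3 fell, beside 30.9% and 19.3% of all genes called in either direction. DUSP8, a phosphatase of the stress-activated kinases, fell with both guides (-0.25 and -0.32, adjusted p = 0.031 and 0.011). DUSP10, also a phosphatase of stress-activated kinases and the paralog with the highest counts, fell with sgPHF8-1 (-0.15, adjusted p = 0.00029) and was at -0.00 with sgPHF8-3 (adjusted p = 0.98). DUSP1, a nuclear phosphatase of ERK, JNK and p38, was called in opposite directions. Its normalized counts were 1038, 1087 and 1019.7 in sgScr, 1328, 1312 and 1416 in sgPHF8-1, and 979.9, 935 and 974.7 in sgPHF8-3, so that no 2 groups overlapped. DUSP1 rose by 0.37 with sgPHF8-1 (SE 0.042, adjusted p = 1.3e-07) and fell by 0.12 with sgPHF8-3 (SE 0.044, adjusted p = 0.049). The sgPHF8-3 call was near the threshold, and DUSP1 was not recomputed under the alternatives. Of all genes tested, 18 were called in opposite directions with the 2 guides.

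The third list held 18 other genes that ERK induces, of which 17 were tested (EGR3 did not pass the filter). With sgPHF8-1, 4 rose and 7 fell, and with sgPHF8-3, 2 rose and 5 fell, beside 30.9% and 19.3% of all genes called in either direction. FOS, an immediate-early transcription factor, changed most. Its normalized counts were 177, 165 and 101 in sgScr, 113, 53.0 and 79.6 in sgPHF8-1, and 36.3, 30.7 and 40.2 in sgPHF8-3. All sgPHF8-3 libraries were below all others, and the sgPHF8-1 library A lay within the sgScr range. FOS fell by 0.84 with sgPHF8-1 (SE 0.19, adjusted p = 0.0010) and was at -2.04 with sgPHF8-3 (SE 0.22, adjusted p = 1.9e-07). PHLDA1 (-0.28 and -0.23), the cytokine gene LIF (-0.28 and -0.12), the early response gene IER3 (-0.20 and -0.15) and the cyclin gene CCND1 (-0.08 and -0.11) fell with both guides as well (adjusted p at most 0.033). MYC rose with both (0.21 and 0.27, adjusted p = 0.0011 and 0.00019). EGR1, chosen after its values were seen because it is another immediate-early gene, was at -0.15 with sgPHF8-1 (adjusted p = 0.68) and rose by 0.65 with sgPHF8-3 (adjusted p = 0.027), opposite to FOS in the same libraries. HMGA1, with the highest counts in the list, was not called (0.03 and -0.03).

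**Figure D4:**
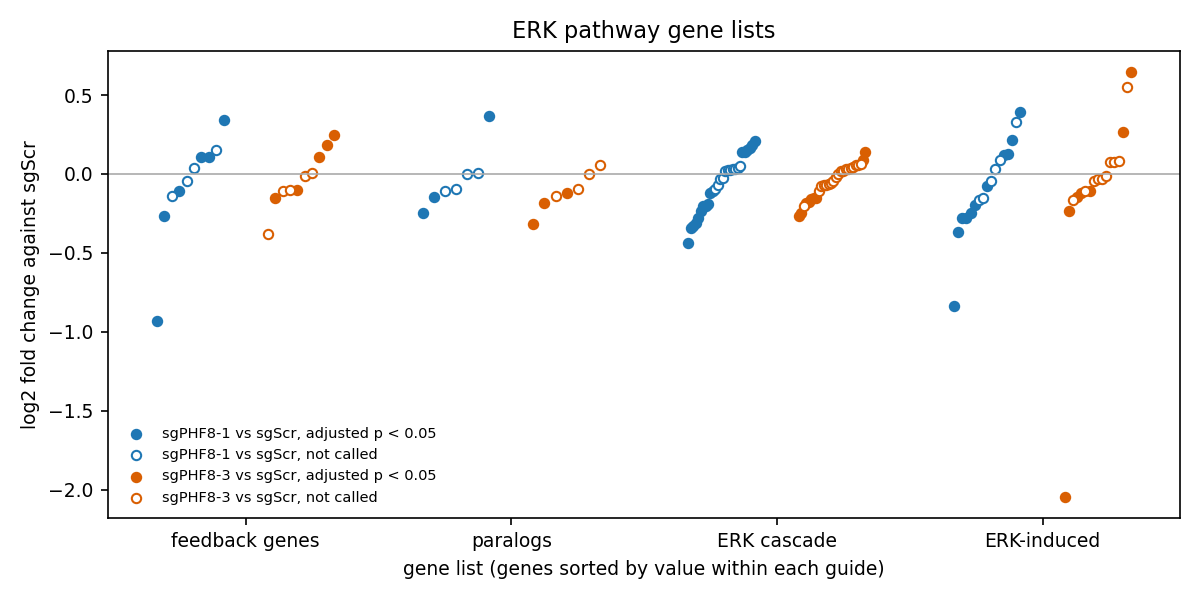
Log2 fold changes against sgScr (y axis) of the tested genes of 4 lists, sorted within each guide: 10 feedback genes, 7 paralogs, 28 genes of the ERK cascade and 17 other ERK-induced genes. Filled points have an adjusted p under 0.05; most values lie near 0 with called genes on both sides, and FOS with sgPHF8-3 (-2.04) is the lowest point.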

How the data were processed

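RNA was taken from 3 libraries per group of SKMEL-147 cells, described in the study's methods as biological replicates, depleted of ribosomal RNA and sequenced from both ends. Per the labels, the authors used bcl2fastq, STAR, Picard, HTSeq and DESeq2 with the hg19 genome. The annotation release and the strand setting are not given in the sources used here. The authors deposited raw read counts per gene and a normalized table, whose values (a signal: counts divided by size factors) equaled raw counts over DESeq2-type median-of-ratios factors within 0.01 reads in 99.9% of 33253 rows matched by symbol. Levels were read from the normalized table and tests used the raw counts.

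Genes were filtered with filterByExpr (14614 kept, minimum count 10) and tested in edgeR 4.0.16 (R 4.3.3, limma 3.58.1): TMM scaling, 1 quasi-likelihood fit over 9 libraries with group as the factor, and Benjamini-Hochberg adjustment over all tested genes, called at 0.05. Values after ± are SDs. SEs and 95% intervals come from the same fit. Libraries were assigned by title. Replicate letters did not pair the libraries. Alternatives were DESeq2 1.42.0, median-of-ratios scaling, no filter, the replicate letter as a block, only the compared groups, and leaving out each library; scaling by total counts and leaving out the 2 libraries farthest from their groups were added after seeing the data.

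The members and lists were chosen with earlier results of these data known. From each of the 3 pathway lists, up to 6 genes called in one direction with both guides, with the largest mean change, and the 2 genes with the highest level were named, except that some genes of the lists are counted but not reported by name here. Positions and exon lengths are from GENCODE v44 lifted to GRCh37. PECAM1, a further marker, was not analysed here.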

Additional observations from a re-analysis of the deposited data

Results flagged for a closer look

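Effects that differed between the 2 guides, by the test of sgPHF8-1 against sgPHF8-3 (edgeR, adjusted over all genes), are listed here as log2 differences, positive where sgPHF8-1 was higher. Among the feedback genes these were DUSP5 (0.16), DUSP6 (0.14) and SPRY2 (-0.16). The targeted gene PHF8 differed by 0.48. Among the named genes of the other lists, FOS differed by 1.21, DUSP1 by 0.49, DUSP10 by -0.15, NF1 by -0.15 and LIF by -0.16. EGR1 differed by -0.80. Of the melanoma markers, NGFR differed by -0.41, MITF by -0.28 and AXL by -0.081. FOS fell more with sgPHF8-3, while NF1 and LIF fell more with sgPHF8-1. DUSP1 was the named gene whose libraries moved in opposite directions, all sgPHF8-1 libraries above and all sgPHF8-3 libraries below the sgScr range. With 3 libraries per group, no single library was tested as an outlier.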

How the results depend on the processing

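Of 594 recomputed log2 fold changes of the feedback genes and PHF8, 517 kept their direction and side of the threshold, 55 lost the call, 8 gained one and 14 changed sign. The sign changes were in values that were not called: ETV4 with sgPHF8-3 (0.029 without the 2 libraries farthest from their groups, -0.082 to 0.029 over single libraries left out, positive in 3 of 6), SPRED1 with sgPHF8-3 (-0.0011 with all genes of at least 1 read, -0.023 without those 2 libraries, -0.023 to 0.035 over single libraries), DUSP6 with sgPHF8-1 (-0.0037 without sgPHF8-1 replicate A, otherwise up to 0.070) and ETV5 between the guides (-0.032 to 0.017 over single libraries left out, -0.049 without those 2 libraries). DESeq2 called fewer genes: 3 feedback genes for both guides averaged (6 in edgeR) and 3 with sgPHF8-3 (5 in edgeR), and over all genes 2849 for the average (4321), 1706 with sgPHF8-3 (2814) and 915 between the guides (1544); the cause was not tested.

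With 1 library left out, feedback genes called ranged from 3 to 6 with sgPHF8-1, 1 to 4 with sgPHF8-3, 3 to 6 for the average and 2 to 3 between the guides. The sgPHF8-1 count was 3 without sgScr replicate A. The sgPHF8-3 count was 1 (DUSP4) without sgPHF8-3 replicate B, 2 without sgScr replicate B and 3 without sgScr replicate C. Over all genes the counts were 3544 to 4187, 1877 to 2474, 3117 to 4394 and 923 to 1467. Libraries of one letter did not deviate together (correlations from -0.17 to 0.15 over 9 pairs). With the replicate block, 6, 4, 6 and 4 feedback genes were called; ETV5 with sgPHF8-3 was lost (adjusted p = 0.054), SPRED1 between the guides was gained (0.048), and over all genes 4395, 2698, 4198 and 1481 were called. Levels relative to DUSP6 moved by less than 1 SD on the log2 CPM scale. Scaling factors cancel in a ratio of genes within a library, so this could not check the scaling. With 7 to 29 reads per library, the precision of SPRY1 is limited by depth.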
